A study of Mus musculus with 25 samples.

Results

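A set of 10 genes of the fibroblast matrix and of the leptomeninges, the thin membranes that cover the brain, was followed by name through 25 RNA-seq libraries of mouse hippocampus. They were the fibrillar collagen genes Col1a1, Col1a2 and Col3a1, the small leucine-rich proteoglycan genes Bgn, Dcn, Fmod, Lum and Ogn, and the leptomeningeal genes Slc6a20a and Aldh1a2. All 10 were found among the 24421 gene symbols of the count tables, and all 10 were among the 15912 genes that passed the filter on low counts. The mice were Scn1a+/-, which carry 1 working copy of the gene for the sodium channel Nav1.1 and serve as a model of Dravet syndrome, or wild type. At postnatal day 24 (P24), mice of the cross [129S6/SvEvTac x C57BL/6]F1 (F1) formed 3 groups, namely Scn1a+/- with seizures (3 libraries), Scn1a+/- without seizures (2) and wild type (3). P24 mice of 129S6/SvEvTac (129S6) were labelled Scn1a+/- (3) or wild type (3). At P14 the groups were F1 Scn1a+/- (3), F1 wild type (3), 129S6 Scn1a+/- (3) and 129S6 wild type (2), and no group but the first had seizures by its label. Each library was a pool of hippocampi, from 3 to 4 mice in the seizure group and from 12 to 16 mice in every other group, so seizures and pool size cannot be told apart. The labels do not say how the pools of a group were separated, so p-values measure the spread between pools, estimated over all groups together.

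Fibrillar collagens are the tensile fibres of connective tissue. A type I collagen molecule combines the chains of Col1a1 and Col1a2, and type III collagen is built of the Col3a1 chain alone. Small leucine-rich proteoglycans bind such fibrils and control how they assemble, and biglycan (Bgn) and decorin (Dcn) also bind growth factors. In the brain these genes are expressed by fibroblasts of the meninges and around larger vessels, which are few in the hippocampus itself. Whether other cells contributed to their levels here was not tested. Slc6a20a encodes a transporter of proline and other imino acids, and Aldh1a2 encodes the enzyme that makes retinoic acid, a product of the developing meninges.

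In the mm10 build the collagen genes are at chr11:94936224-94953042 (Col1a1), chr6:4505618-4541543 (Col1a2) and chr1:45311538-45349706 (Col3a1). The proteoglycan genes are at chrX:73483601-73495936 (Bgn), chr1:134037254-134048280 (Fmod) and chr13:49608015-49624501 (Ogn), and Dcn (chr10:97479500-97518163) and Lum (chr10:97565501-97572703) are neighbours. Slc6a20a (chr9:123636907-123678832) and Aldh1a2 (chr9:71215789-71296243) are both on chromosome 9.

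The libraries held 7436442 to 25520050 counts each. The members were rare transcripts, with 21 to 656 counts per library. The seizure replicates differed most among themselves, with a chi-square per degree of freedom of 19.8 to 43.6 between pairs, against at most 9.24 in the other groups. Marker genes of hippocampal neurons were all detected, with summed levels of 642 to 1030 CPM per library (CPM are counts scaled to a common library size), and 4 hemoglobin genes were listed at 0 in every library. The other blood cell genes searched summed to 4.72 to 15.9 CPM, so the values at 0 do not show tissue free of blood. Scn1a averaged 79.9 ± 10.3 CPM in seizure libraries (SD, n = 3), 104 ± 16 CPM in seizure-free Scn1a+/- F1 libraries (n = 2) and 127 ± 3 CPM in wild-type F1 libraries (n = 3) at P24. In P24 129S6 it went against the labels, with 140 ± 5 CPM in libraries labelled Scn1a+/- and 110 ± 1 CPM in those labelled wild type (n = 3 each). The 6 columns of P24 129S6 in the authors' deposited normalized table matched count tables of the other genotype, whereas the other 19 columns matched their own group, so the genotypes of P24 129S6 are written as labelled.

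Promoter sequence was available for 7 of the 10 genes, namely Col1a2, Col3a1, Bgn, Fmod, Ogn, Slc6a20a and Aldh1a2. The 250 bases before the start are shown for the 2 members that were highest in seizure libraries relative to wild type, Col3a1 and Bgn, and for the 2 that were lowest, Fmod and Ogn. They are from RefSeq (GRCm38.p6, the mm10 build of the counts), all on the plus strand, at chr1:45311288-45311537, chrX:73483351-73483600, chr1:134037004-134037253 and chr13:49607765-49608014. Capitals mark matches to the motifs searched.
Col3a1: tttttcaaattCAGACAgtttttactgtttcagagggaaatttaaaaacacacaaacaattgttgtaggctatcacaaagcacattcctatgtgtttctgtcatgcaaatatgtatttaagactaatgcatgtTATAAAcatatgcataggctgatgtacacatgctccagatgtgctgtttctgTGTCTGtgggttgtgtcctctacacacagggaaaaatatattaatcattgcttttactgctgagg
Bgn: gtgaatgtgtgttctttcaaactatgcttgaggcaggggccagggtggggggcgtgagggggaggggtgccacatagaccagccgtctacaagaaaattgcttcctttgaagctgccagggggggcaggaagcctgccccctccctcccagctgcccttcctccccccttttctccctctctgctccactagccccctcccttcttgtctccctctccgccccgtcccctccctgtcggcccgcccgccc
Fmod: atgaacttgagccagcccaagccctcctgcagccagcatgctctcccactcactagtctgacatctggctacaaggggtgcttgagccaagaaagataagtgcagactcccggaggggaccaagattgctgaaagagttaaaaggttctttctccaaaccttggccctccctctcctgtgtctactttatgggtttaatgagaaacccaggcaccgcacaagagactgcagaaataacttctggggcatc
Ogn: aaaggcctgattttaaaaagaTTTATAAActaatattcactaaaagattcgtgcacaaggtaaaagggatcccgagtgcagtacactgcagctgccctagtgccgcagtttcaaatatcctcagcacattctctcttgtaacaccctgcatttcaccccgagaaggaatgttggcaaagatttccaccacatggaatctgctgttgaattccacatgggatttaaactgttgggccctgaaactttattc

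The motifs were searched on both strands. The SMAD motif CAGACA was found 2 times before Col3a1 (the second as TGTCTG) and in 2 of the 7 members' windows, against 17.1% of 27025 windows of all genes. The TATA motif TATAAA lay once before Col3a1 and 2 times, overlapping, before Ogn, and 13% of all windows held it. The CCAAT box (CCAAT) was in 2 of the 7 windows, those of Col1a2 and Aldh1a2, against 34.5% of all. The AP-1 motif TGANTCA (6.87% of all) and the STAT motif TTCNNNGAA (7.18%) were in none of the 7. The window of Bgn is 64.4% G and C and that of Col3a1 35.2%, against a median of 52% over all genes.

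**Figure D1:**
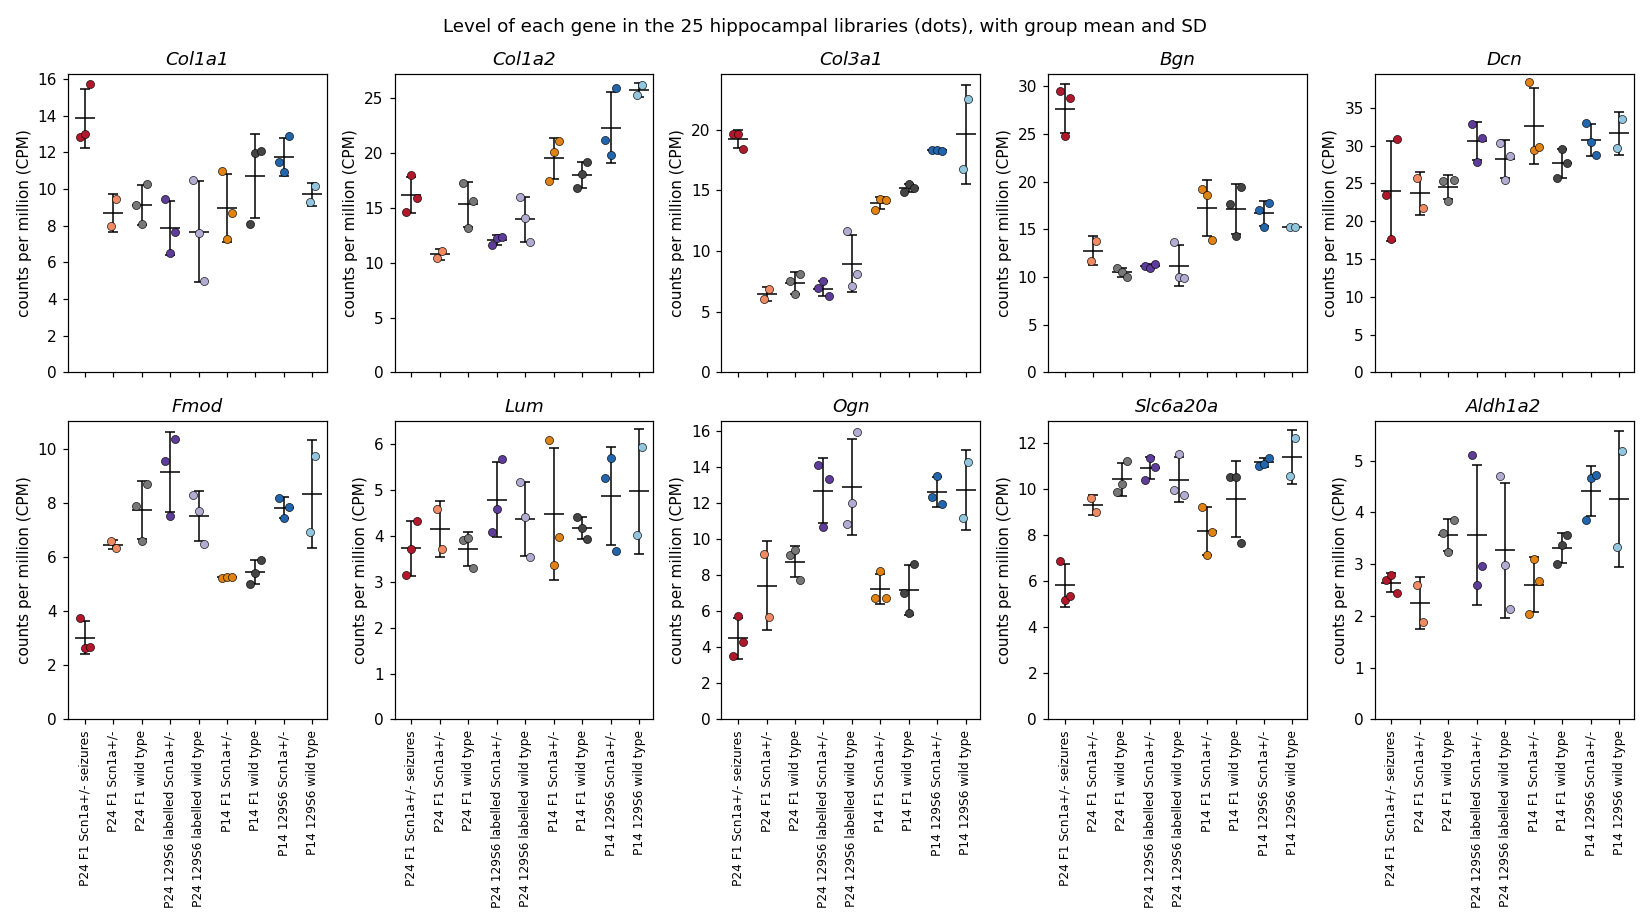
CPM of each of the 10 genes (y axis, from 0) in every library (dots), by group (x axis), with the group mean and SD in black. In the seizure libraries Col3a1 and Bgn lie above every other P24 library and Fmod and Slc6a20a below every other library of the series.

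Levels were compared between genes per kilobase of annotated exon, in wild-type P24 F1 libraries (n = 3). The lengths join the exons of all transcripts annotated for a gene, such as 3.95 kilobases for Fmod and 13.0 for Dcn. The order depends on these lengths, and other choices of transcript were not tried. Fmod had 1.96 ± 0.27 CPM per kilobase and Dcn 1.88 ± 0.12. Bgn (1.55 ± 0.07), Ogn (1.43 ± 0.14), Col1a1 (1.39 ± 0.17), Slc6a20a (1.24 ± 0.08) and Col1a2 (1.21 ± 0.16) followed. Aldh1a2 (0.771 ± 0.066), Col3a1 (0.717 ± 0.085) and Lum (0.580 ± 0.057) were lowest. Neighbours in this order differed by less than their SDs except at the steps from Dcn to Bgn, from Col1a2 to Aldh1a2 and from Col3a1 to Lum. The exons of Ogn overlap those of Cenpp on the opposite strand, and overlaps with predicted genes or Ccr9 exist for Col1a2, Col3a1, Slc6a20a and Aldh1a2. The library kit does not mark strand, so reads in these overlaps cannot be assigned to one gene.

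The first comparison asked what differed in P24 F1 Scn1a+/- hippocampi with seizures. The members moved in opposite directions. Against wild type, 3 of 10 were higher (Col3a1, Bgn and Col1a1) and 3 were lower (Fmod, Ogn and Slc6a20a), by edgeR's quasi-likelihood test at a Benjamini-Hochberg adjusted p under 0.05 over all genes. Over all genes 12.4% were higher and 10.1% lower. The median log2 fold change was -0.02 over the members and 0.01 over all genes.

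Col3a1 had 19.7, 19.6 and 18.4 CPM in seizure libraries, against 6.06 and 6.88 CPM in seizure-free Scn1a+/- and 7.52, 6.44 and 8.16 CPM in wild-type libraries. Its levels did not overlap, and the log2 fold change was 1.38 ± 0.13 (SE) against wild type (adjusted p = 6.8e-10) and 1.56 ± 0.16 against seizure-free Scn1a+/- (1.25e-08). Bgn had 29.5, 24.8 and 28.8 CPM in seizure libraries, against 11.7 and 13.8 CPM in seizure-free Scn1a+/- and 10.9, 10.6 and 9.99 CPM in wild-type libraries. These were the highest Bgn levels in the series, with a log2 fold change of 1.40 ± 0.12 against wild type (adjusted p = 1.63e-10) and 1.11 ± 0.14 against seizure-free Scn1a+/- (7.21e-07). Both genes were thus between 2.15-fold and 2.95-fold higher in the seizure libraries. The SEs and p-values use a spread estimated over all groups, although seizure replicates differed most among themselves.

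The type I chains had smaller differences. Col1a1 had 12.9, 13.0 and 15.7 CPM in seizure libraries, against 7.97 and 9.44 CPM in seizure-free Scn1a+/- and 9.13, 8.08 and 10.3 CPM in wild-type libraries. Its difference from wild type was 0.60 ± 0.17 (adjusted p = 0.00824), but the adjusted p was 0.0673 without wild-type replicate 2. Against seizure-free Scn1a+/- it was 0.66 ± 0.20 (0.0205), and the adjusted p ran to 0.0712 without seizure-free replicate 2, to 0.189 without replicate 1 and to 0.0595 without seizure replicate 3. Col1a2, the partner chain, had 14.6, 17.9 and 15.9 CPM in seizure libraries, against 10.4 and 11.1 CPM in seizure-free Scn1a+/- and 17.2, 13.2 and 15.6 CPM in wild-type libraries. It overlapped with wild type (log2 fold change 0.08, 95% interval -0.16 to 0.31, adjusted p = 0.691) and was higher than in seizure-free Scn1a+/- by 0.58 ± 0.14 (0.00354; 0.0562 without seizure-free replicate 1). For Col1a2 the call thus depended on which control was used, and the 2 comparisons share the seizure libraries.

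Fmod, which encodes fibromodulin, a proteoglycan that binds type I collagen fibrils, had 3.73, 2.64 and 2.68 CPM in seizure libraries, against 6.58 and 6.33 CPM in seizure-free Scn1a+/- and 7.88, 6.61 and 8.71 CPM in wild-type libraries. All 3 seizure values were below those of the other 22 libraries, and the log2 fold change was -1.35 ± 0.17 against wild type (adjusted p = 1.59e-07) and -1.09 ± 0.19 against seizure-free Scn1a+/- (0.000113). Slc6a20a had 6.88, 5.18 and 5.36 CPM in seizure libraries, against 9.61 and 8.99 CPM in seizure-free Scn1a+/- and 9.84, 10.2 and 11.2 CPM in wild-type libraries. It fell by 0.84 ± 0.13 on the log2 scale against wild type (adjusted p = 1.26e-05) and fell by 0.67 ± 0.15 against seizure-free Scn1a+/- (0.00222), also with no overlap. Ogn, which encodes osteoglycin (mimecan), had 3.51, 5.74 and 4.29 CPM in seizure libraries, against 9.18 and 5.66 CPM in seizure-free Scn1a+/- and 9.13, 9.38 and 7.74 CPM in wild-type libraries. The log2 fold change was -0.96 ± 0.18 against wild type (adjusted p = 0.000153). Against seizure-free Scn1a+/- the Ogn libraries overlapped, and its difference of -0.69 ± 0.22 (adjusted p = 0.0271) had an adjusted p of 0.461 without seizure-free replicate 1 and 0.0995 without seizure replicate 1.

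For 3 members neither test passed. Dcn, the closest relative of Bgn, had 23.4, 17.6 and 30.8 CPM in seizure libraries, against 25.7 and 21.7 CPM in seizure-free Scn1a+/- and 25.3, 22.6 and 25.5 CPM in wild-type libraries. The seizure values of Dcn lay on both sides of the others, and the 95% interval of its log2 fold change against wild type was -0.29 to 0.23. Lum, which encodes lumican, had 3.15, 3.71 and 4.34 CPM in seizure libraries, against 4.59 and 3.72 CPM in seizure-free Scn1a+/- and 3.92, 3.96 and 3.30 CPM in wild-type libraries (interval against wild type -0.42 to 0.42). Aldh1a2 had 2.70, 2.80 and 2.44 CPM in seizure libraries, against 2.60 and 1.89 CPM in seizure-free Scn1a+/- and 3.61, 3.24 and 3.85 CPM in wild-type libraries. Its seizure values were all below wild type but not called (-0.43 ± 0.23, adjusted p = 0.198). In pooled tissue, fewer cells of a type and less RNA per cell cannot be told apart. Against seizure-free Scn1a+/-, 4 members were higher (Col1a2 beside the other 3) and 3 lower, where 8.72% and 7% of all genes were. When only these 2 groups were fitted, the calls over all genes numbered 633, against 2502 with all groups in the fit. There 4 of the members' 7 calls were lost as well, with adjusted p of 0.0564 for Col1a1, 0.0714 for Col1a2, 0.186 for Ogn and 0.0859 for Slc6a20a.

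**Figure D2:**
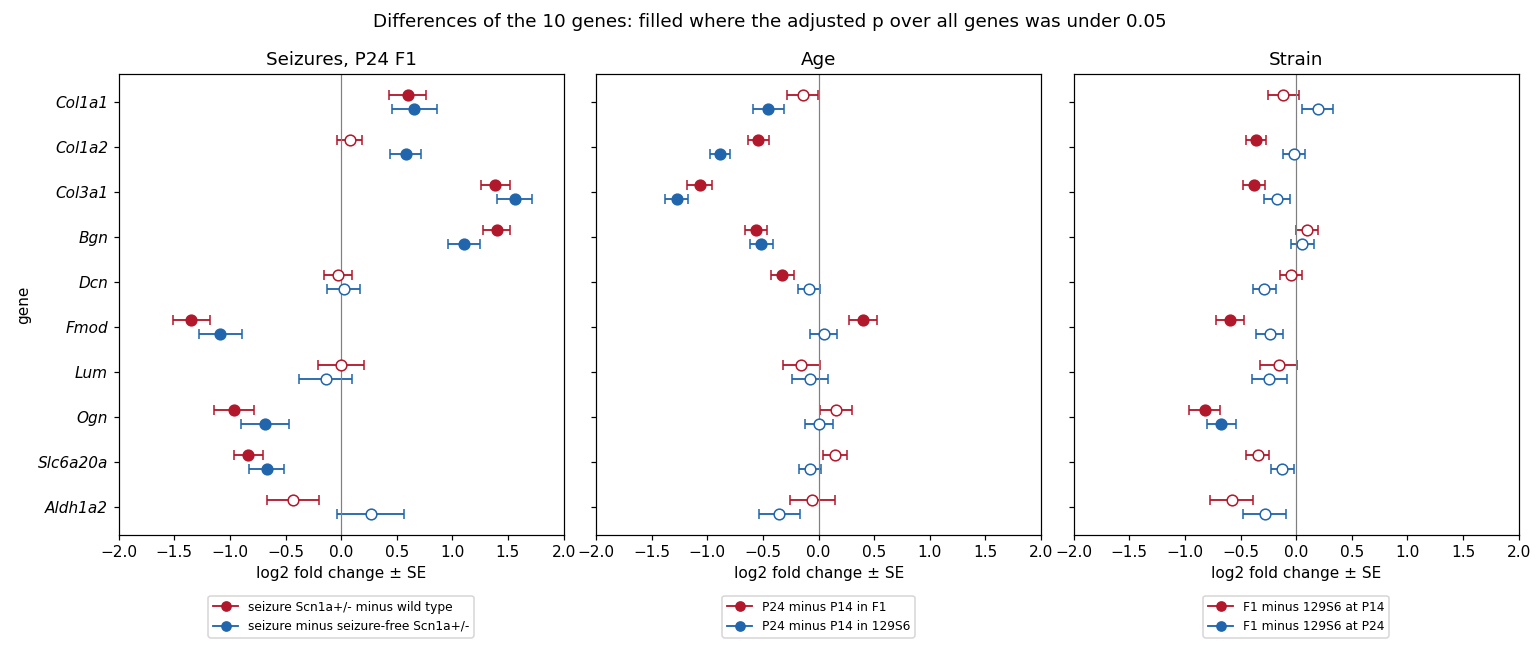
Log2 fold change ± SE of the 10 genes (y axis) in the seizure, age and strain comparisons, each difference taken as its legend says; filled dots had an adjusted p under 0.05 over all genes. Against wild type and against seizure-free Scn1a+/-, Col3a1, Bgn and Col1a1 lie right of 0 and Fmod, Ogn and Slc6a20a left of it.

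Ratios of counts within a library do not depend on its depth, and they are given as a description. Col3a1 and Bgn were higher and Fmod lower in the same seizure libraries. Gaps in the ratios of these genes therefore repeat the differences above and add no separate evidence. Col3a1 over Fmod was 5.28, 7.42 and 6.87 in seizure libraries, 0.921 and 1.09 in seizure-free Scn1a+/- and 0.937 to 0.975 in wild-type P24 F1 libraries. The seizure values exceeded those of every P14 library as well, where the ratio was 2.24 to 2.98. Col3a1 over Col1a2 was 1.34, 1.09 and 1.16 in seizure libraries, 0.583 and 0.620 in seizure-free Scn1a+/- and 0.437 to 0.524 in wild-type libraries, and it stayed below 1 in all libraries without seizures. Bgn over Dcn was 1.26, 1.40 and 0.934 in seizure libraries, 0.455 and 0.637 in seizure-free Scn1a+/- and 0.392 to 0.467 in wild-type libraries. Col1a2 over Col1a1, the 2 chains of type I collagen, was 1.01 to 1.38 in seizure libraries, 1.18 and 1.30 in seizure-free Scn1a+/- and 1.52 to 1.89 in wild-type libraries.

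**Figure D3:**
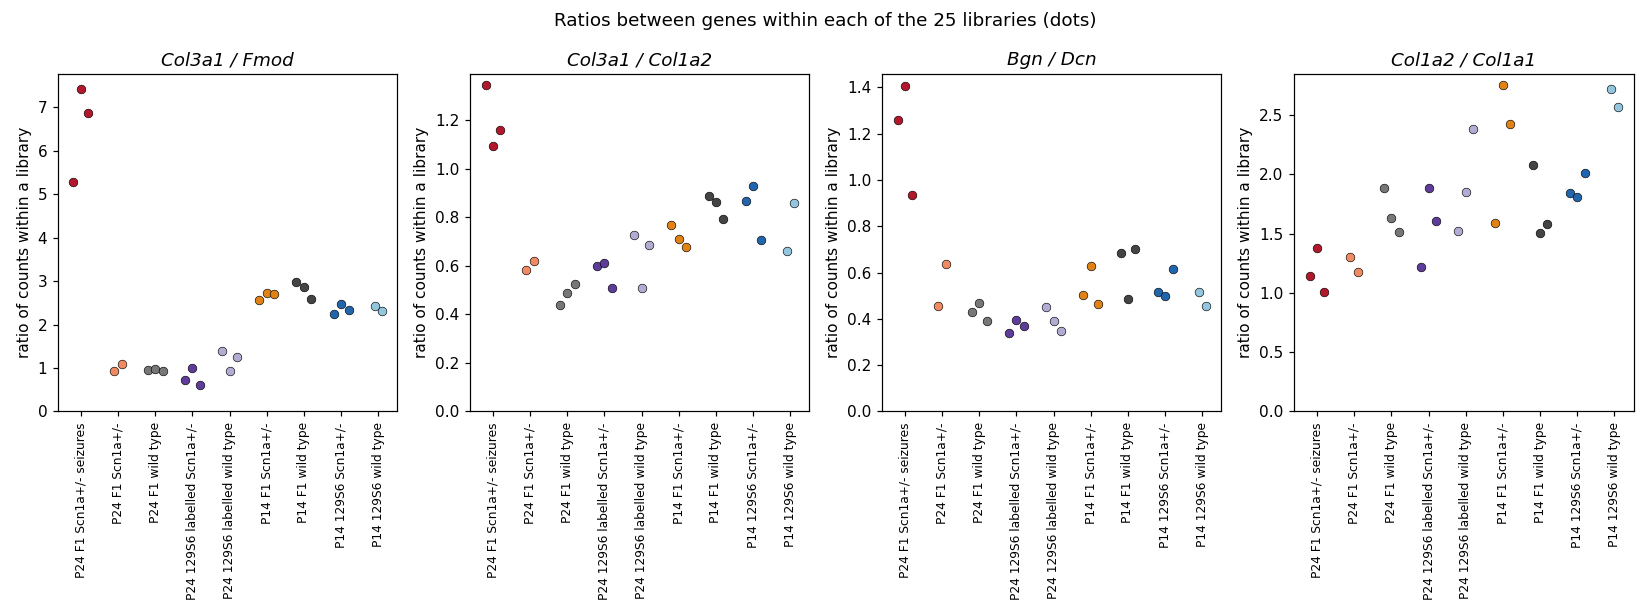
Ratios of counts between member genes (y axes, from 0) within each library (dots), by group (x axis). Seizure libraries have the highest Col3a1/Fmod, Col3a1/Col1a2 and Bgn/Dcn ratios of the 9 groups, and P14 groups lie above the other P24 groups in Col3a1/Fmod.

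Genes around the members were read from lists. In seizure libraries against wild type, 11 of 33 other collagen chains rose and 5 fell (median log2 fold change 0.04). Col16a1 rose by 1.42 ± 0.10 (adjusted p = 2.94e-12), and Col27a1 rose too, with means of 51.5 CPM in seizure libraries and 18.3 CPM in wild-type libraries (2.47e-11). So did Col5a3 (1.66 ± 0.16, 1.13e-09) and Col11a1 (0.83 ± 0.08, 3.84e-09), the last 2 being chains of the minor fibrillar collagens that copolymerise with types I to III. Of 21 genes for collagen folding, processing and crosslinking, 7 rose and 2 fell (median 0.19). Serpinh1, the collagen chaperone HSP47, rose by 0.71 ± 0.10, Loxl1, a crosslinking enzyme, by 1.01 ± 0.18 and Sparc, a collagen-binding secreted protein, by 0.32 ± 0.06, whereas the collagen galactosyltransferase Colgalt1 fell by 0.47 ± 0.07.

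Other fibroblast matrix genes were split, with 2 of 21 higher and 3 lower (median -0.10). Mfap4 and Fbln2, which encode proteins of elastic fibres, rose by 1.65 ± 0.14 and 1.48 ± 0.14, and Tnxb (tenascin-X) and Prelp, another small leucine-rich proteoglycan, had -0.86 ± 0.12 and -0.97 ± 0.14. Among 28 other leptomeningeal and perivascular fibroblast markers, 2 rose and 11 fell, with a median of -0.34. Ptgds, a prostaglandin D synthase abundant in the leptomeninges, fell by 0.88 ± 0.10, and its mean was 139 ± 16 CPM in seizure libraries (SD, n = 3) and 257 ± 12 CPM in wild-type libraries (n = 3). The GABA and taurine transporter gene Slc6a13 fell by 1.19 ± 0.18. S100a6, a calcium-binding protein that astrocytes make as well, rose by 2.14 ± 0.18, and the dicarboxylate transporter gene Slc13a3 by 0.68 ± 0.10. The summed level of the 28 markers was 632 to 673 CPM in seizure libraries, 718 and 769 CPM in seizure-free Scn1a+/- and 819 to 855 CPM in wild-type libraries, with no overlap. Ptgds had the highest level of the 28 and weighs most in this sum. Whether the fall of Ptgds or the sum reflects leptomeningeal cells was not tested.

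Markers of other cell types at the brain's borders are given beside the 12.4% higher and 10.1% lower among all genes. Of 11 pericyte and vascular smooth muscle markers, 1 rose and 1 fell, with sums of 143 to 178 CPM in seizure libraries and 163 to 170 CPM in wild-type libraries. Of 14 endothelial markers, 2 rose and 2 fell, with sums of 287 to 332 CPM in seizure libraries and 310 to 331 CPM in wild-type libraries. Choroid plexus markers (1 of 13 higher, 1 lower) summed to 670 to 1324 CPM in seizure libraries and 971 to 1060 CPM in wild-type libraries. Ependymal (5 tested) and border macrophage markers (6 tested) had 0 calls by edgeR, as had 2 blood cell genes. Markers of hippocampal neurons differed in the same libraries, with 5 of 10 lower and 1 higher and sums of 642 to 881 CPM in seizure libraries and 934 to 1018 CPM in wild-type libraries. Thalamic and habenular markers were lower for 3 of 9 and higher for 0, neocortical markers lower for 3 of 7 and higher for 0, and striatal markers lower for 1 and higher for 2 of 7. The sums of these lists did not overlap. In seizure libraries they were 100 to 108 CPM (thalamic and habenular), 137 to 168 CPM (neocortical) and 102 to 119 CPM (striatal). In wild-type libraries they were 120 to 143, 177 to 191 and 81.7 to 89.5 CPM in the same order. The part of tissue makeup in the members' differences was not tested.

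In the transforming growth factor beta pathway, an inducer of fibroblast collagen, 7 of 24 genes rose and 2 fell (median 0.16). Pmepa1 rose by 1.53 ± 0.12, Skil by 0.86 ± 0.08 and Smad3 by 0.79 ± 0.10. In wild-type libraries the 24 genes summed to 694 to 696 CPM, against 27.7 to 34.0 CPM for the fibrillar collagens. In which cells they changed was not tested. In the retinoid pathway, in which Aldh1a2 acts, 3 of 16 other genes rose and 2 fell (median -0.02). Its relative Aldh1a3 had a mean of 6.19 CPM in seizure libraries and 0.470 CPM in wild-type libraries and rose by 3.69 ± 0.30. The receptor gene Rara rose by 1.06 ± 0.14, and the receptor gene Rxra fell by 0.39 ± 0.09.

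**Figure D4:**
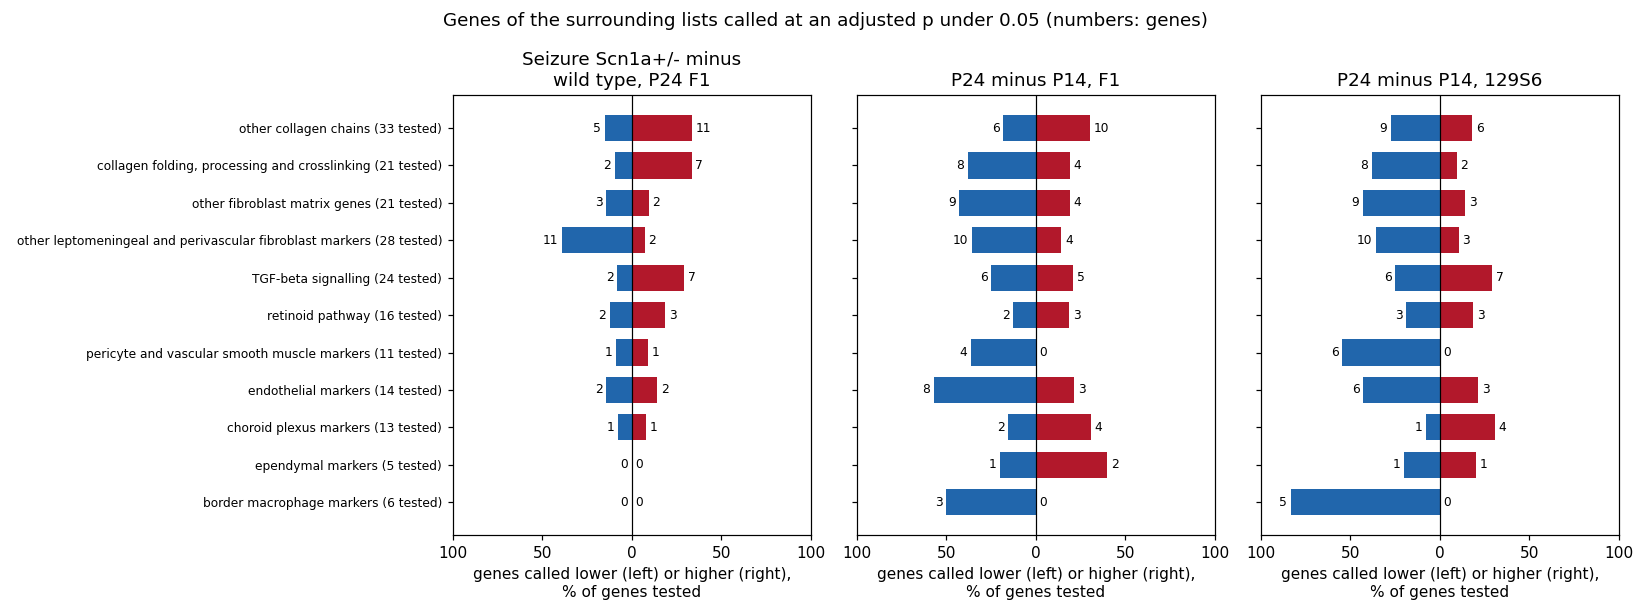
Genes of each list called lower (left, blue) or higher (right, red) at an adjusted p under 0.05, as a percentage of those tested (x axis), with the number of genes at each bar. Other leptomeningeal markers have 11 lower and 2 higher genes in seizure libraries, and 10 lower genes with age in either strain.

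Genotype without seizures was compared within each strain and age. In none of the 4 comparisons was a member called by edgeR, where 0% of all genes were called in P24 F1, 0% in P24 129S6, 0% in P14 F1 and 0% in P14 129S6; DESeq2 called 0 genes as well. Scn1a itself was not called in these comparisons either. Its log2 fold change was -0.29 ± 0.08 in P24 F1 and 0.35 ± 0.08 in P24 129S6 as labelled. At P14 it was -0.18 ± 0.08 in F1 and -0.18 ± 0.08 in 129S6. The absence of calls thus does not show that genotype left the members unchanged. At an unadjusted p under 0.05 there were 2 members and 889 genes in P24 F1, 1 and 471 in P24 129S6, 0 and 724 in P14 F1, and 0 and 391 in P14 129S6. In P24 F1 the 2 members were Col1a2, at -0.51 ± 0.14 in seizure-free Scn1a+/- against wild type, and Aldh1a2, at -0.70 ± 0.29, both with an adjusted p of 0.833. When the seizure libraries were left out of the fit, 200 genes were called in P24 F1 and Col1a2 was one of them (-0.50, adjusted p = 0.0455). The sums of some marker lists did not overlap between the same libraries. With 2 libraries against 3, sums can separate without a difference between groups, and they were not tested. Choroid plexus markers summed to 689 and 786 CPM in seizure-free Scn1a+/- and 971 to 1060 CPM in wild-type libraries. Hippocampal neuron markers summed to 809 and 931 CPM in seizure-free Scn1a+/- and 934 to 1018 CPM in wild-type libraries, and the other leptomeningeal markers given above did not overlap either. Neocortical markers (165 and 169 CPM in seizure-free Scn1a+/-, 177 to 191 CPM in wild type) and striatal markers (74.2 and 79.9 CPM in seizure-free Scn1a+/-, 81.7 to 89.5 CPM in wild type) likewise did not overlap. Other lists overlapped. Thalamic and habenular markers summed to 114 and 123 CPM in seizure-free Scn1a+/- and 120 to 143 CPM in wild type. Endothelial markers summed to 321 and 329 CPM in seizure-free Scn1a+/- and 310 to 331 CPM in wild type, and pericyte and vascular smooth muscle markers overlapped too. The part of tissue makeup in the difference of Col1a2 was not tested. In P24 129S6 the member was Col3a1, with 6.92, 7.50 and 6.28 CPM in libraries labelled Scn1a+/- and 11.6, 7.15 and 8.11 CPM in those labelled wild type (-0.36 ± 0.15, adjusted p = 1.00). Of the libraries labelled wild type, 1 lay within the range of those labelled Scn1a+/- and the other 2 above it.

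With age, Col3a1, Col1a2 and Bgn were lower at P24 than at P14 in both strains. These libraries were seizure-free and pooled over genotypes, so that the doubt about labels in P24 129S6 does not touch the result. In F1, 4 of 10 members were lower (Col3a1, Col1a2, Bgn and Dcn) and 1 higher (Fmod), where 19.4% of all genes were lower and 19% higher. In 129S6, 4 were lower (Col3a1, Col1a2, Bgn and Col1a1), where 17.1% of all genes were, and none was higher. The members' median log2 fold change was -0.15 in F1 and -0.22 in 129S6, against 0.00 and 0.01 over all genes.

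Col3a1 had the largest age difference among the members in both strains. In F1 it had 6.06 to 8.16 CPM in the 5 P24 libraries and 13.4 to 15.5 CPM in the 6 P14 libraries, a log2 fold change of -1.07 ± 0.11 (adjusted p = 2.03e-09). In 129S6 it had 6.28 to 11.6 CPM at P24 (6 libraries) and 16.8 to 22.5 CPM at P14 (5 libraries), a change of -1.28 ± 0.10 (1.36e-11), with no overlap in either strain. Col1a2 averaged 13.5 CPM at P24 and 18.8 CPM at P14 in F1 (-0.54 ± 0.09, adjusted p = 2.39e-05). In 129S6 it averaged 13.0 CPM at P24 and 23.7 CPM at P14 (-0.88 ± 0.09, 2.29e-09). Bgn fell by 0.56 ± 0.10 in F1 (adjusted p = 3.62e-05) and fell by 0.51 ± 0.10 in 129S6 (0.000135), without overlap in either.

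Col1a1 at P24 fell by 0.45 ± 0.14 in 129S6 (adjusted p = 0.0112), which became 0.0516 without P14 wild-type replicate 2, and in F1 its change was -0.14 ± 0.14 (0.448). Dcn fell by 0.33 ± 0.10 in F1 (adjusted p = 0.0100), with an adjusted p of 0.0882 without P24 F1 Scn1a+/- replicate 2 and 0.0533 without P14 F1 Scn1a+/- replicate 1. Fmod ran the other way in F1, with 6.33 to 8.71 CPM at P24 and 4.99 to 5.90 CPM at P14 (0.40 ± 0.13, adjusted p = 0.0136), and it was 0.04 ± 0.12 in 129S6. The age difference itself was tested for a difference between F1 and 129S6, and edgeR called no member, where 0.00628% of all genes (1 gene) were called. By DESeq2 that number was 2 genes, and 1 member, Col1a2, had an unadjusted p under 0.05 (difference 0.34 ± 0.13, adjusted p = 0.545). Between F1 Scn1a+/- and F1 wild type no member's age difference was called either, where 0% of all genes were called by edgeR or DESeq2; Col1a2 had -0.62 ± 0.19 (adjusted p = 0.877) and was the 1 member with an unadjusted p under 0.05.

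The levels in seizure libraries can be read beside these ages, without a test. For Col3a1 the order of group means at P24 and P14 in F1 was 19.2 ± 0.7 CPM in seizure libraries, 15.2 ± 0.3 in P14 wild type, 13.9 ± 0.5 in P14 Scn1a+/-, 7.37 ± 0.87 in P24 wild type and 6.47 ± 0.58 in P24 seizure-free Scn1a+/- (SD; n = 3, 3, 3, 3 and 2). The libraries of the 2 lowest groups overlapped. For Bgn the order was 27.7 ± 2.6 CPM in seizure libraries, 17.2 ± 2.9 in P14 Scn1a+/-, 17.1 ± 2.6 in P14 wild type, 12.8 ± 1.5 in P24 seizure-free Scn1a+/- and 10.5 ± 0.5 in P24 wild type, and the P14 groups could not be ordered. Fmod was lowest in seizure libraries (3.02 ± 0.62 CPM), below 5.24 ± 0.02 in P14 Scn1a+/- and 5.44 ± 0.45 in P14 wild type.

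The lists around the members changed with age in both directions. Of 21 genes for collagen folding and crosslinking, 8 were lower and 4 higher at P24 in F1, and 8 were lower and 2 higher in 129S6. Serpinh1 fell by 1.02 ± 0.08 in F1 and fell by 1.26 ± 0.08 in 129S6, and Lox, the lysyl oxidase gene, fell by 1.83 ± 0.28 in 129S6. Of 21 other fibroblast matrix genes, 9 were lower in either strain, among them Nid1 (nidogen, -1.20 ± 0.10 in F1 and -1.18 ± 0.10 in 129S6) and Fn1 (fibronectin, -0.71 ± 0.07 in F1 and -0.75 ± 0.07 in 129S6), while 4 in F1 and 3 in 129S6 were higher, among them Prelp (1.27 ± 0.12 in F1 and 1.01 ± 0.11 in 129S6). Of 33 other collagen chains, 6 were lower and 10 higher in F1, and 9 were lower and 6 higher in 129S6. Of 28 other leptomeningeal markers, 10 were lower in either strain and 4 in F1 and 3 in 129S6 higher, with Ptgds up by 1.15 ± 0.08 in F1 and 1.10 ± 0.08 in 129S6. Endothelial markers were lower for 8 and higher for 3 of 14 in F1 and lower for 6 and higher for 3 in 129S6, and border macrophage markers were lower for 3 of 6 in F1 and 5 of 6 in 129S6. Whether the share of these cells changed with age was not tested.

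Strain was compared as F1 minus 129S6 in seizure-free mice, pooled over genotypes. At P14, 4 of 10 members were lower in F1 (Ogn, Fmod, Col3a1 and Col1a2), where 1.66% of all genes were, and none was higher. The median log2 fold change was -0.35 over the members and 0.00 over all genes. At P24 only Ogn was lower, 1 of 10, where 2.87% of all genes were, and none was higher.

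Ogn had 5.88 to 8.62 CPM in the 6 F1 libraries and 11.2 to 14.3 CPM in the 5 129S6 libraries at P14, without overlap (-0.82 ± 0.14, adjusted p = 0.000175). At P24 it had 5.66 to 9.38 CPM in the 5 F1 libraries and 10.6 to 15.9 CPM in the 6 129S6 libraries, again without overlap (-0.67 ± 0.13, 0.00118; 0.0707 without P24 F1 Scn1a+/- replicate 2). Fmod at P14 averaged 5.34 CPM in F1 and 8.02 CPM in 129S6 (-0.59 ± 0.13, adjusted p = 0.00363), Col3a1 14.6 CPM in F1 and 18.8 CPM in 129S6 (-0.38 ± 0.10, 0.0189), and Col1a2 18.8 CPM in F1 and 23.7 CPM in 129S6 (-0.36 ± 0.09, 0.0122). These 3 were no longer called without P14 129S6 wild-type replicate 2, with adjusted p of 0.0897 for Fmod, 0.299 for Col3a1 and 0.0747 for Col1a2. Without P14 F1 Scn1a+/- replicate 1 the values were 0.0581 for Col3a1 and 0.0569 for Col1a2, and Col1a2 had 0.0794 without P14 129S6 Scn1a+/- replicate 3.

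Of 28 other leptomeningeal markers, 8 were lower and none higher in F1 at P14 (median -0.27), with Igf2 at -0.85 ± 0.09 and Ptgds at -0.56 ± 0.08. Choroid plexus markers moved with them, with 5 of 13 lower and none higher (median -0.47). Their summed level was 595 to 983 CPM in F1 libraries and 996 to 1552 CPM in 129S6 libraries at P14, and Ttr (transthyretin) was at -0.58 ± 0.15. Whether choroid plexus or meninges in the dissected tissue had a part in the strain differences was not tested. In the other direction, Col15a1, a basement membrane collagen, was higher in F1 at P14 (0.80 ± 0.13) and at P24 (1.11 ± 0.14), as was Col12a1 (0.58 ± 0.11 and 0.69 ± 0.11), while Col11a1 was lower at both ages (-0.48 ± 0.07 and -0.50 ± 0.07).

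The members were also compared with each other within groups. Over the 25 libraries, with each group's mean subtracted from log2 CPM, Pearson's r of the 45 pairs of members had a median of 0.16 and a range of -0.51 to 0.54, with 32 pairs above 0. The most alike were Fmod and Aldh1a2 (0.54), and the least alike Ogn and Slc6a20a (-0.51). These libraries share groups, strains and a pooled design, and the members have low counts, so the values are a description. Of 14391 genes ranked by likeness to the members' mean within groups, Gbp5 (r = 0.78), Prkx (0.71), Gabpa (0.70), Bid (0.69) and Cdc45 (0.67) were first. As the highest of so many genes they can reach such values by chance, and they were not tested. The members' own r to that mean ran from 0.03 (Ogn) to 0.76 (Col1a1).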

How the data were processed

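Hippocampal RNA of 25 pools was sequenced from TruSeq RNA v2 libraries, a kit that does not mark strand, per the labels' protocols. The authors deposited raw counts per gene for each library. Per the submitters' processing notes, the mm10 build was used and the tools were HTSeq 0.6.1p1 and TopHat2 2.1.0, besides CASAVA. The deposited normalized signal table, whose scaling is not given in the sources used here, served only to match columns to count tables.

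Counts were fitted in edgeR 4.0.16 (R 4.3.3) with 1 coefficient for each of 9 groups, TMM normalization and filterByExpr (minimum count 10). Quasi-likelihood tests were adjusted by Benjamini-Hochberg over 15912 genes and called at an adjusted p under 0.05. The common biological coefficient of variation was 7.57%. CPM used TMM library sizes, SE is the log2 fold change over the root of F, and intervals are 95%. Age and strain comparisons left out seizure libraries and pooled genotypes. Exonic lengths came from a GENCODE annotation of GRCm39. The fit was also run on counts simulated with the same spread in every group. The real seizure replicates differed more among themselves, so that run does not cover their spread.

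Alternatives were DESeq2 1.42.0, its size factors in edgeR, no filter, the compared groups alone, no seizure libraries and each replicate left out. Chi-square per degree of freedom between replicates of a group was at least 2.48, and all were counted separately. This value cannot show whether the pools of a group held different mice. Libraries of different groups were not compared in this way.

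The members and the 19 lists were chosen with earlier results of these data known. Beyond the members, the text names Scn1a, in each comparison that called a member, at most 4 called genes per list, taken by adjusted p, and the 5 genes most like the members' mean within groups. Of the genes this rule names, 2 are not reported here.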

Additional observations from a re-analysis of the deposited data

How the results depend on the processing

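Of 1680 values of the members under alternatives, 1648 stayed on their side of the threshold, 21 lost a call, 11 gained one and no called value reversed; 90 uncalled values changed sign. Col3a1, Bgn and Fmod were called in both seizure comparisons under every alternative run, with ranges against wild type of 1.28 to 1.45 for Col3a1, 1.34 to 1.47 for Bgn and -1.54 to -1.26 for Fmod. Against wild type, the largest adjusted p of these alternatives was 0.000103 for Col3a1, 5.41e-05 for Bgn and 0.00144 for Fmod. The count of called members moved by over 1.5 times in these cases. With only the groups compared, it was 3 for seizure against seizure-free Scn1a+/- (7 otherwise) and 2 for F1 minus 129S6 at P24 (1 otherwise). That count at P24 was also 2 with no filter and 2 without the seizure libraries, with Dcn added. Without the seizure libraries 1 member, Col1a2, was called for genotype in P24 F1. With each replicate left out in turn, the counts ranged from 4 to 7 for seizure against seizure-free Scn1a+/-, from 5 to 6 for seizure against wild type, from 1 to 5 for F1 minus 129S6 at P14 and from 0 to 1 at P24, from 4 to 5 for age in F1 and from 3 to 5 in 129S6, and stayed at 0 elsewhere. The cause was not tested. Totals over all genes moved by over 1.5 times as well. With only the groups compared, 1615 genes were called for seizure against wild type (3579 otherwise), 633 for seizure against seizure-free Scn1a+/- (2502), 1051 for strain at P14 (588), 1950 for strain at P24 (1008) and 42 for the age difference between strains (1). Without the seizure libraries there were 991 for strain at P14, 2104 at P24, 42 for the age difference between strains and 200 for genotype in P24 F1 (0 otherwise). Without P24 F1 Scn1a+/- replicate 2 there were 423 for strain at P24 and 1519 for seizure against seizure-free Scn1a+/-, and without P14 129S6 wild-type replicate 2 there were 380 for strain at P14. The age difference between strains had 6 genes with no filter, 2 by DESeq2 and 3 without P24 F1 Scn1a+/- replicate 1. In the other moves a total of 0 became 1 to 9.

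No paired analysis was possible because replicate numbers were given in accession order and the titles number the libraries 1 to 25, so no number is shared between groups. Groups of 2 or 3 pools, low counts of Lum and Aldh1a2, and pools of unequal size limit precision.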
